A study of Mus musculus with 42 samples.

Results

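This report describes the transcripts of beta-catenin (Ctnnb1), of the cytoplasmic complex that marks it for destruction (Apc, Axin1, Axin2, Gsk3b and Csnk1a1) and of the Tcf/Lef factors that carry it to DNA (Tcf7l1, Tcf7l2 and Lef1) in single mouse retinal progenitor cells (RPCs). The members were listed by name as 10 genes, and 9 of them had at least 1 probe set with a single gene symbol in the platform annotation, 30 probe sets in all, out of 18194 genes measured in this way. Tcf7, the other listed gene, was not analysed here. All 42 cells came from untreated CD1 mice without any engineered allele. Of these, 11 were E12.5 cells (embryonic day 12.5), 4 were E13.5 cells, 2 were E14.5 cells, 1 was an E15.5 cell, 11 were E16.5 cells and 13 were P0 cells, taken on the day of birth. Each cell was picked at random from dissociated retina and was classified as an RPC only afterwards, from its own transcripts, so the group is a class drawn from expression rather than a sorted population, and 6 of the 42 were classed as in transition to neurons. PCR-amplified cDNA of each cell was put on its own Affymetrix mouse array. No label ties a cell to an animal or litter, and each stage therefore counted as 1 sample, so that no test between stages was made and the intervals given cover only the counting of cells.

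In the canonical Wnt pathway, beta-catenin is continuously made and destroyed. The scaffolds Axin and Apc hold it beside casein kinase 1 alpha and glycogen synthase kinase 3 beta, which phosphorylate it and so mark it for ubiquitination and degradation, and a Wnt signal received by Frizzled and Lrp receptors stops this. Beta-catenin that escapes enters the nucleus, where it binds Tcf/Lef proteins and turns them from repressors into activators of target genes, among them Axin2 and Lef1. Beta-catenin also links cadherins to the actin cytoskeleton at the adherens junctions of neuroepithelial cells, independently of Wnt. In the developing eye, the Wnt role is best known from the pigment epithelium and the peripheral margin of the retina.

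The profiles differed in depth. A gene was called present in a cell when its highest probe set reached a MAS 5.0 signal of 1000, and between 1386 and 5253 genes were present per cell, with a median of 3034. E12.5 cells had a median of 2800 genes, E16.5 cells of 3217 and P0 cells of 3063. On 5 of the 11 E16.5 arrays, those of cells E8, J1, J2, J4 and F1, the spiked hybridization controls were out of pattern, with a standard deviation of 0.603 to 0.629 on the log2 scale over 18 control probe sets, against at most 0.235 on the other 37 arrays, and 22.6% of all gene and cell combinations were present on these 5 arrays, against 11.97% on the other 6 arrays of this stage. Genes of muscle and keratin, which retinal cells are not expected to use, were present in 3.77% of 504 combinations. Of 8 progenitor markers measured, 76.5% of combinations were present. This share was partly set by the selection of the cells. Ccnd1 and Fgf15 were among the genes used to class them as RPCs, and Pax6 and Ccnd1 among those used to check the cDNA by PCR. The share of cells with a gene depends on how well its probe sets hybridize as well as on its RNA, so the order of the shares below does not rank RNA amounts between genes.

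The promoters of the Tcf/Lef genes are shown because the proteins these genes encode recognise the letters CTTTG, which read CAAAG on the opposite strand, so that each can be read for a match to the core of its own binding site. The windows run 300 bases, from 250 before to 50 after an annotated RefSeq start on the build GRCm38.p6, and the capitals mark each match. They are the window of Tcf7l1 (chr6:72788996-72789295, minus strand), the first of the windows listed for Tcf7l2 (chr19:55741560-55741859, plus strand) and the first listed for Lef1 (chr3:131110047-131110346, plus strand).
Tcf7l1: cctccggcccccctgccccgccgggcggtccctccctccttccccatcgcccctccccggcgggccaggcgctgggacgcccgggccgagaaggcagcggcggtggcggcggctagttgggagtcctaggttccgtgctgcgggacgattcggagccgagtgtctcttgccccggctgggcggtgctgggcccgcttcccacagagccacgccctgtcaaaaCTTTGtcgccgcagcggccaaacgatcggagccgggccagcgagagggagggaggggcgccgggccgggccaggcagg
Tcf7l2: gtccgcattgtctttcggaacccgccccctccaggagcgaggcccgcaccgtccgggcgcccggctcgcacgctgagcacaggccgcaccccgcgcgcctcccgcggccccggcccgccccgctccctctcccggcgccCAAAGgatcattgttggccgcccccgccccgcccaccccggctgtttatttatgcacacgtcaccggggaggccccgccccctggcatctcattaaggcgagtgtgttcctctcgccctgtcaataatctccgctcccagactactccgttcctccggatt
Lef1: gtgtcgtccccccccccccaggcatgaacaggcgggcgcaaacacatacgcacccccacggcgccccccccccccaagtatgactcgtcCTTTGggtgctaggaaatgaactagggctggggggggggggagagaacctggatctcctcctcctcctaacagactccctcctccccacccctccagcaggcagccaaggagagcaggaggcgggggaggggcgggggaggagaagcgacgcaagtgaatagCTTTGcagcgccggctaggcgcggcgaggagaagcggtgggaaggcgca
Relative to the annotated start, counted as position 0, the Tcf7l1 match begins at -28, the Tcf7l2 match at -111, and the Lef1 matches at -161 and 1. The same letters occurred in 53.9% of 32851 mouse promoter windows of this length, searched on both strands, and the longer CTTTGA in 16%. Windows were matched by symbol and searched for 6 of the members, 11 windows in all, of which 4 were Lef1's and partly overlapped. CTTTG was found for 4 of these 6 genes, in 8 windows, and not in the windows of Ctnnb1 and Axin2. A match describes these letters and is not evidence of binding.

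The 9 genes spanned nearly the whole range of detection. Ctnnb1 was present in 41 of 42 cells and Csnk1a1 in 34, Apc was present in 19, Tcf7l1 in 16, Tcf7l2 in 13, Axin1 in 11 and Gsk3b in 10, and Lef1 was present in 3 cells and Axin2 in 1. Over all 9, 148 of 378 gene and cell combinations were present, or 39.2%, against 17.0% over all genes measured. Of these 148, Ctnnb1 gave 41 and Csnk1a1 34. Presence takes the highest probe set of a gene. The 9 genes had 30 probe sets, against 34958 for all 18194 genes, so the 2 shares are not matched for the number of probe sets. Lef1, at 7.14% of cells (95% Clopper-Pearson interval 1.50 to 19.5%), and Axin2, at 2.38% (0.0603 to 12.6%), had intervals that included the 3.77% of the muscle and keratin genes. The intervals of neighbours in this order overlapped from Apc to Gsk3b. All genes were scored in the same 42 cells, so separate intervals do not compare 2 genes, and no order among these genes was tested. At the ends of this range, 15 cells had Apc without Gsk3b and 6 had Gsk3b without Apc. The counts of the rarer genes depended on the level. Tcf7l2 was present in 22 cells at 500 and 7 at 2000, Apc in 23 and 12, Axin1 in 17 and 6 and Gsk3b in 14 and 7. With the mean of the probe sets in place of the highest, Csnk1a1 was present in 22 cells, Apc in 9 and Tcf7l2 and Gsk3b in 3 each. Of the 378 combinations, 16 lay between 900 and 1100, with 8 on either side of 1000.

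**Figure D1:**
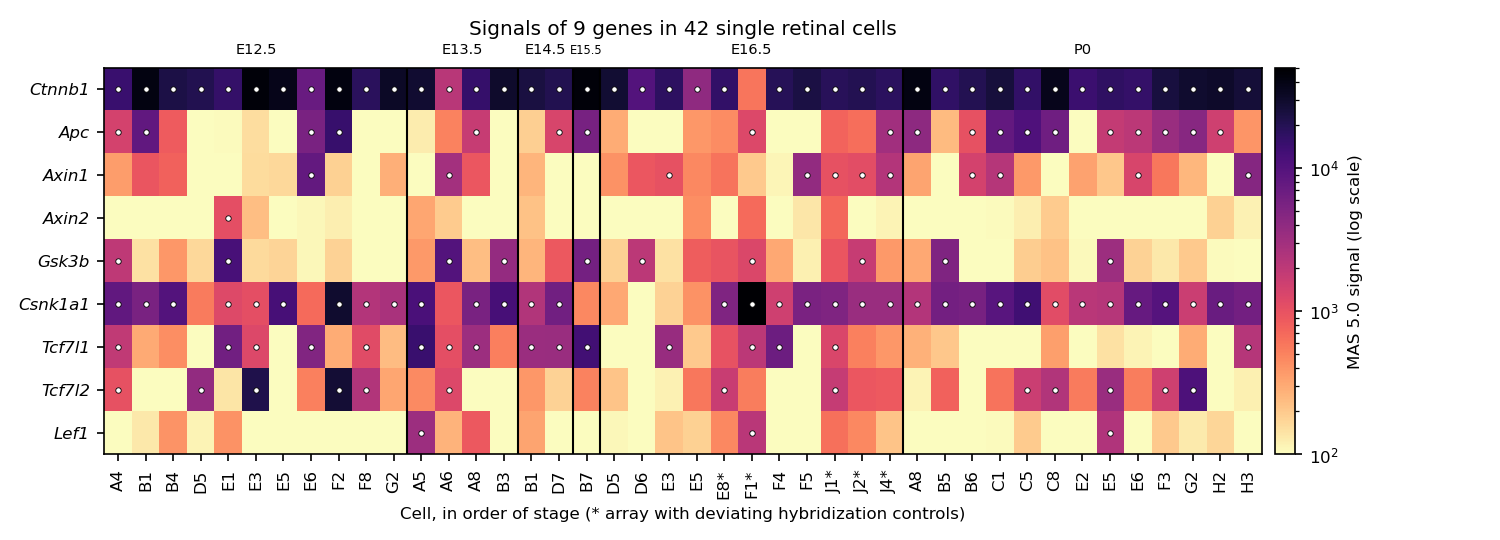
Signal of each of the 9 genes (rows) in each of the 42 cells (columns, by stage), as the highest MAS 5.0 signal of its probe sets on a log colour scale; white dots mark signals of 1000 or more and asterisks the 5 arrays with deviating controls. Ctnnb1 carries a dot in 41 cells, Csnk1a1 in 34, Lef1 in 3 and Axin2 in 1.

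Ctnnb1 was the most constant of the set. Its signal ran from 7229 through a median of 22806 to 44836 in the 11 E12.5 cells, from 589 through 17869 to 27921 in the 11 E16.5 cells, and from 14231 through 24159 to 40308 in the 13 P0 cells. The 4 E13.5 cells had 2172 (cell A6), 15410, 28170 and 29710, the E14.5 cells 20518 and 24117, and the E15.5 cell 44985. The ranges of E12.5, E16.5 and P0 cells overlapped, the E15.5 cell lay above every other cell, and all 13 P0 cells and all 11 E12.5 cells had Ctnnb1 (difference 0, Newcombe 95% interval -22.8 to 25.9 percentage points). Only 98 genes, or 0.539% of those measured, were present in as many cells or more. The 3 cells with the lowest Ctnnb1 signals, E16.5 F1 at 589, E13.5 A6 at 2172 and E16.5 E5 at 3941, are all among the cells that the published classification called transitional, while the other transitional cells had 16110 (P0 C5), 24117 (E14.5 B1) and 27921 (E16.5 D5). E16.5 F1 was hybridized to an array with deviating controls and had the most genes present of all cells. E16.5 E5, with 1438 genes present, was among the shallowest. E13.5 A6 had the highest signals of all cells for the lens genes Crygd (277341) and Cryaa (78457), which were named after their values were seen. Cryba1 and Crybb2, also lens genes, were below the level in this cell, and its origin was not tested. The 3 probe sets of Ctnnb1 were nested, with 41, 33 and 19 positive cells, and every cell positive for a rarer one was positive for the commoner ones.

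Among the genes of the destruction complex, Apc, the large scaffold that presents beta-catenin to the kinases, differed most between stages. It was present in 4 of 11 E12.5 cells, 1 of 4 E13.5 cells, 1 of 2 E14.5 cells, the E15.5 cell, 2 of 11 E16.5 cells and 10 of 13 P0 cells. The signal in P0 cells was 35.0 at the lowest, 2032 at the median and 10619 at the highest, against 55.7, 152 and 15002 in E12.5 cells and 11.1, 384 and 3065 in E16.5 cells. The highest single signals were thus in an E12.5 cell, F2, and the stages overlapped, but the median P0 cell lay above 8 of the 11 E12.5 cells and 10 of the 11 E16.5 cells. The 3 P0 cells without Apc were B5 at 242, E2 at 35.0 and H3 at 392. At P0 76.9% of cells had Apc, against 36.4% at E12.5, a difference of 40.6 points (1.35 to 66.5), and against 18.2% at E16.5, a difference of 58.7 points (18.6 to 78.5). Against all 29 earlier cells together, with Apc in 9, the difference was 45.9 points (13.2 to 66.2). Of the genes compared, 334, or 3.33%, were as much or more higher at P0 than at E12.5, and 52, or 0.43%, as much or more higher than at E16.5. Both E16.5 cells with Apc, F1 and J4, were on arrays with deviating controls, and with the 6 other E16.5 cells alone the difference from P0 was 76.9 points. Those 6 profiles were shallower, with 11.97% of all gene and cell combinations present, against 18.1% at P0, and the part of depth was not tested.

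The Apc difference came from 2 of its 4 probe sets, and these marked different cells. One was positive in 11 cells and another in 9, with only E13.5 A8 in common, and a cell lacking one could have the other at a high level. At P0 the first was positive in 6 of 13 cells, against 3 of 11 at E12.5, and the second in 4 of 13, against 1 of 11, so each was more frequent at P0 by 18.9 points (-18.3 to 49.2) and 21.7 points (-12.2 to 49.6), which counting alone does not separate from 0. The P0 to E12.5 difference of Apc was thus 21.7 points with the probe set of highest mean signal and 11.2 points with the mean of the probe sets. It also fell with the level used, to 26.6 points at 2000, and it ran the other way at 5000, with 3 of 13 P0 cells and 3 of 11 E12.5 cells (-4.20 points). Genes of Muller glia, which are born from the latest RPCs, moved over the same stages. Of the 5 measured, the number present per cell was 2 to 3 at P0, against 0 to 2 at E12.5 and 0 to 2 at E16.5, and their summed signal ran from 7837 to 46323 in P0 cells, from 262 to 27690 in E12.5 cells and from 2869 to 54408 in E16.5 cells, with Aqp4 and Apoe present in no cell of these stages. Rlbp1, a retinoid-binding protein of Muller glia that the authors also placed among their late RPC genes, was present in 11 P0 cells, of which 10 had Apc. No E12.5 or E16.5 cell had it. Glul, which the authors described as broadly expressed in RPCs, was already present in 8 of 11 E12.5 cells and 10 of 11 E16.5 cells. Slc1a3 was in 4 E12.5, 6 E16.5 and 9 P0 cells. The part of these genes in the Apc difference was not tested.

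**Figure D2:**
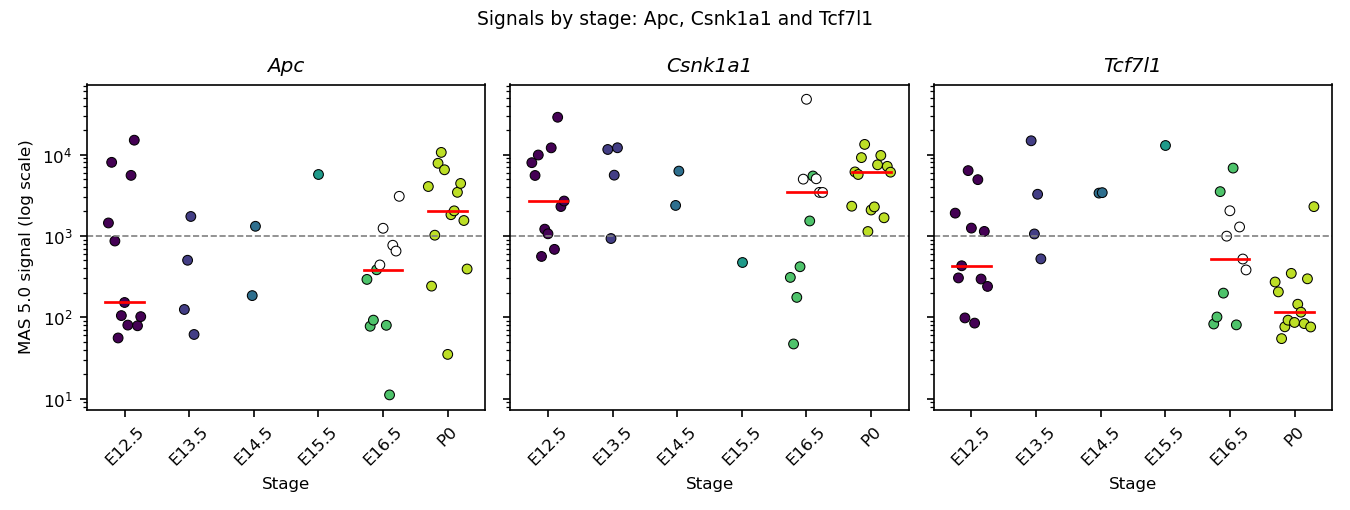
Signal of Apc, Csnk1a1 and Tcf7l1 in each cell (points, log axis) by stage, with the median (red line) for stages of more than 5 cells; the dashed line is the level of 1000 and open points are the 5 arrays with deviating controls. At P0, 10 of 13 cells lie above the line for Apc, 13 of 13 for Csnk1a1 and 1 of 13 for Tcf7l1.

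Csnk1a1 encodes casein kinase 1 alpha, which places the first phosphate on beta-catenin. It was present in 9 of 11 E12.5 cells, 3 of 4 E13.5 cells, both E14.5 cells, 7 of 11 E16.5 cells and all 13 P0 cells, while the E15.5 cell had 472. Its signal at P0 was 1132 at the lowest, 6072 at the median and 13318 at the highest, against 559, 2683 and 28710 at E12.5 and 47.0, 3419 and 47736 at E16.5. All P0 cells were thus positive but the highest signals were in earlier cells, and the ranges overlapped. The share at P0 exceeded that at E16.5 by 36.4 points (5.23 to 64.6) and that at E12.5 by 18.2 points (-8.09 to 47.7). The second interval ran from a negative to a positive value. Both intervals cover only the counting of cells, and neither difference between stages was tested. On the 6 E16.5 arrays with usual controls 2 cells had Csnk1a1, and with these alone the difference from P0 was 66.7 points, while all 5 cells with deviating controls had it. These 6 arrays were shallower, with 11.97% of all gene and cell combinations present, against 18.1% at P0. E16.5 D5, E5 and E3, which lacked Csnk1a1, had 1386, 1438 and 1674 genes present. The part of depth in this difference was not tested. Of the 5 probe sets of Csnk1a1, 1 was positive in 25 cells and another in 23, with 15 cells in common. The first was more frequent at P0 than at E16.5 by 40.6 points (1.35 to 66.5), the second by 6.99 points (-28.5 to 40.7). With the mean of the probe sets, 8 of 13 P0 cells and 5 of 11 E16.5 cells had Csnk1a1. With the probe set of highest mean signal, 8 and 6 cells had it.

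Axin1, the scaffold that limits how much complex can form in many cells, was present in 1 of 11 E12.5 cells, 1 of 4 E13.5 cells, neither E14.5 cell nor the E15.5 cell, 5 of 11 E16.5 cells and 4 of 13 P0 cells. The E12.5 cell E6, at 7806, had the highest signal of all. The E16.5 positive cells had 1005, 1019, 1081, 2312 and 3769, and the P0 positive cells 1323, 1442, 2247 and 4582. Axin1 was more frequent at E16.5 than at E12.5 by 36.4 points, with an interval (-1.12 to 63.9) that included 0, and 3 of the 5 positive E16.5 cells lay within 10% above the level of 1000. Without the 5 arrays with deviating controls, which gave 3 of these 5 cells, the difference was 24.2 points. Axin1 signals between 900 and 1000 occurred in E12.5 B1, E13.5 A8 and E16.5 D6.

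Gsk3b, the kinase that completes the phosphorylation of beta-catenin and also acts outside this pathway, was present in 2 of 11 E12.5 cells, 2 of 4 E13.5 cells, the E15.5 cell, 3 of 11 E16.5 cells and 2 of 13 P0 cells. Its highest signals were 11763 in E12.5 E1, 9901 in E13.5 A6, 5919 in E15.5 B7 and 5040 in P0 B5, and the E16.5 positive cells had 1279, 1745 and 2032. The share at P0 differed from that at E12.5 by -2.80 points (-34.3 to 27.1). Its 6 probe sets were positive in 0 to 6 cells each, and no 2 of them shared more than 1 cell. Axin2, a scaffold that the pathway itself induces, reached the level once, at 1073 in E12.5 E1, the cell with the highest Gsk3b signal. In the other 41 cells its highest signal was 715, on an E16.5 array with deviating controls, and it was present in 0 of 13 P0 cells (upper bound of the interval 24.7%) and 0 of 11 E16.5 cells (28.5%).

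Of the Tcf/Lef genes, Tcf7l1, whose protein acts mainly as a repressor in the absence of beta-catenin, was found mostly in embryonic cells, 15 of its 16 positive cells. It was present in 5 of 11 E12.5 cells, 3 of 4 E13.5 cells, both E14.5 cells, the E15.5 cell and 4 of 11 E16.5 cells, but in 1 of 13 P0 cells. The P0 signals were 54.7 at the lowest and 116 at the median, with H3 alone positive at 2289 and the next highest cell at 346. Against this, E12.5 cells had 84.8, 430 and 6342 as lowest, median and highest, and E16.5 cells 80.7, 520 and 6813. The highest signals of all were 14752 in E13.5 A5 and 13045 in E15.5 B7. At P0 7.69% of cells had Tcf7l1, against 45.5% at E12.5, a difference of -37.8 points (-65.0 to -2.53), and against 36.4% at E16.5, a difference of -28.7 points (-57.6 to 4.58). Against all 29 earlier cells, with Tcf7l1 in 15, it was -44.0 points (-62.1 to -13.1). Between P0 and E12.5, 143 of 10019 genes, or 1.43%, were as much lower.

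The 2 probe sets of Tcf7l1 were positive in 13 and 6 cells and shared E14.5 D7, E15.5 B7 and E16.5 F4. Both were less frequent at P0 than at E12.5, with 1 of 13 and 3 of 11 cells for the first (-19.6 points, -49.5 to 11.5) and 0 of 13 and 2 of 11 for the second (-18.2 points, -47.7 to 8.09). The difference was -10.5 points at a level of 2000, -19.6 points with the mean of the probe sets and with the probe set of highest mean signal alike, and -28.7 points with the hybridization controls set to one level, so the direction held under these settings while the size fell under the limit of 30 points used below.

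Tcf7l2, the Tcf best known as the partner of beta-catenin in the intestine, was present in 5 of 11 E12.5 cells, 1 of 4 E13.5 cells, 2 of 11 E16.5 cells and 5 of 13 P0 cells, and in none of the E14.5 and E15.5 cells. The P0 positive cells had 1522, 1636, 2357, 3426 and 10931, and the E12.5 positive cells 1027, 2391, 3764, 21631 and 27059. The E16.5 positive cells had 1673 and 1771, and both were on arrays with deviating controls, so that none of the 6 other E16.5 cells had it. The share at P0 differed from that at E12.5 by -6.99 points (-40.7 to 28.5), with the sign turned at a level of 500 (14.7 points) and with the hybridization controls set to one level (8.39 points), and from that at E16.5 by 20.3 points (-15.8 to 49.4). Against all 29 earlier cells together, with Tcf7l2 in 8, it was 10.9 points (-16.7 to 39.9). The authors described Tcf7l2 as found more in RPCs of P0, and a gene named Tcf3, taken up below, in more profiles of early timepoints. They also showed in situ hybridization for both on sections. Of 13 positive cells, 12 were positive by 1 of the 4 probe sets. Lef1 was present in 3 cells, E13.5 A5 at 3275, E16.5 F1 at 2100 and P0 E5 at 2421, all by 1 of its 2 probe sets. The highest signal in the remaining cells was 894, and no E12.5 cell was above 418.

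**Figure D3:**
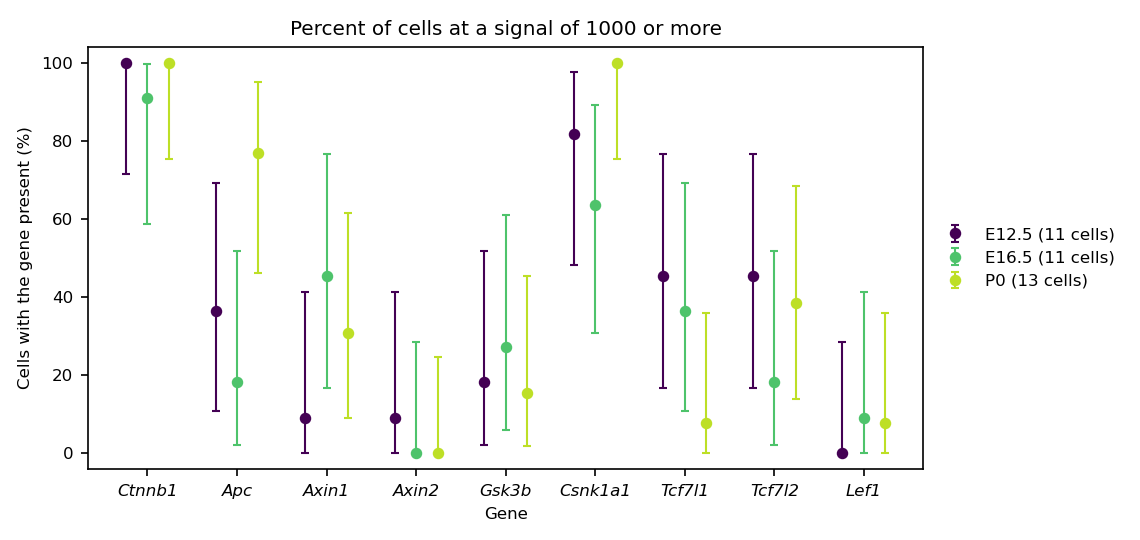
Percent of cells with each gene present (points) at E12.5 (11 cells), E16.5 (11) and P0 (13), with 95% Clopper-Pearson intervals (bars). Apc is at 36.4%, 18.2% and 76.9% and Tcf7l1 at 45.5%, 36.4% and 7.69%, while most intervals of the other genes overlap widely.

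Over the whole array, a difference of 30 points or more was set as the limit. Between P0 and E12.5, 8.58% of the 10019 genes present in either stage were higher at P0 by this limit and 2.76% lower, and of the 9 members Apc was higher and Tcf7l1 lower. Between E16.5 and E12.5, 3.08% of 11800 genes were higher and 3.13% lower, with Axin1 as the only member higher and none lower. Between P0 and E16.5, 7.57% of 12123 genes were higher and 2.61% lower, with Apc and Csnk1a1 higher and no member lower. With 9 genes these counts are too small to set the members apart from the array. The median difference over the members was 0 between P0 and E12.5, against 6.29 points over all genes, -9.09 points between E16.5 and E12.5, against 9.09 points, and 0 between P0 and E16.5, against -1.40 points. These 3 comparisons share stages, so they are not independent of each other.

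The members were then examined together in each cell. A cell had between 1 and 6 of the 9 genes, with a median of 4, and 24 of 42 cells had 4 or more. E12.5 cells had a median of 4, E16.5 cells of 3 and P0 cells of 4, and 8 of 13 P0 cells had exactly 4, against 4 of 11 E12.5 cells. E12.5 A4 and P0 E5 had 6 genes, and E16.5 D5 and E16.5 E5 had Ctnnb1 alone. Deeper profiles had more of them, since the number per cell followed the number of all genes present in that cell (Pearson r = 0.60, Spearman rho = 0.54 over 42 cells, r = 0.52 without E16.5 F1 and E12.5 A4). E12.5 A4 had 4828 genes present, near the top of the range, and E16.5 D5 and E5 were among the shallowest. For the 5 destruction complex genes r was 0.65, and for the 3 Tcf/Lef genes 0.23.

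**Figure D4:**
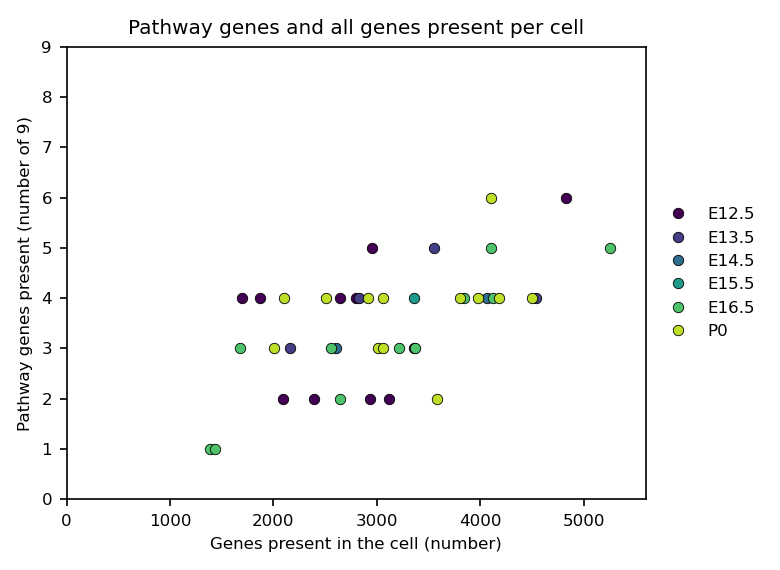
Number of the 9 genes present in each cell against the number of all genes present in that cell, with 1 point per cell coloured by stage. The counts run from 1 to 6, and the 2 cells with a single gene lie at the shallow end.

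No cell had an Axin gene, Apc, Gsk3b and Csnk1a1 together at this level. Apc2, present in 7 cells, and Gsk3a, present in 9, are relatives of Apc and Gsk3b and were not counted for these roles. No expected number was computed for all 4 together. Counting the roles as an Axin scaffold, Apc, Gsk3b and Csnk1a1, 0 of 42 cells had all 4, for which the upper Clopper-Pearson bound is 8.41%, while 9 cells had 3, 18 had 2, 12 had 1 and 3 had none. At P0, 4 of 13 cells had 3 roles and 8 had 2, against 2 and 3 of 11 cells at E12.5. At a level of 500, 4 cells had all 4 roles, E13.5 A6 and the E16.5 cells F1, J1 and J2, of which the last 3 were on arrays with deviating controls. Apc and Axin1 were found together in E12.5 E6, E16.5 J4 and P0 B6, C1 and E6, 5 cells against 4.60 expected if the 2 genes were placed independently within each stage. Apc and Csnk1a1 were together in 17 cells against 16.3 expected, Apc and Gsk3b in 4 against 4.31, and Axin1 and Gsk3b in 2 against 2.66. In these 4 pairs the observed and expected counts differed by less than 1 cell. The 3 cells without any of these genes were E12.5 D5, E16.5 D5 and E16.5 E5, and all 3 had Ctnnb1.

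Tcf7l1 and Tcf7l2 were present together in 5 cells (E12.5 A4, E3 and F8, E13.5 A6 and E16.5 J1) against 4.13 expected, Tcf7l1 alone in 11, Tcf7l2 alone in 8 and neither in 18. At P0 no cell had both, with Tcf7l1 alone in 1 and Tcf7l2 alone in 5, whereas at E12.5 both were found in 3, Tcf7l1 alone in 2, Tcf7l2 alone in 2 and neither in 4 of 11 cells. Since only 1 P0 cell had Tcf7l1, at most 1 could have had both, and the P0 count says little about joint presence. In the cells with both, at least 1 of the 2 signals was below 2000, and at a level of 2000, with 11 and 7 positive cells, no cell had both, against 0.958 expected. At 500, 9 cells had both, against 7.69 expected. The signals of the 2 genes did not follow each other over the 42 cells (Spearman rho = -0.0011). Lef1 was found with Tcf7l1 in E13.5 A5 and E16.5 F1 and with Tcf7l2 in P0 E5, and no cell had all 3. At P0, 7 of 13 cells had Ctnnb1 without any of the 3 factors, as did 4 of 11 at E12.5.

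**Figure D5:**
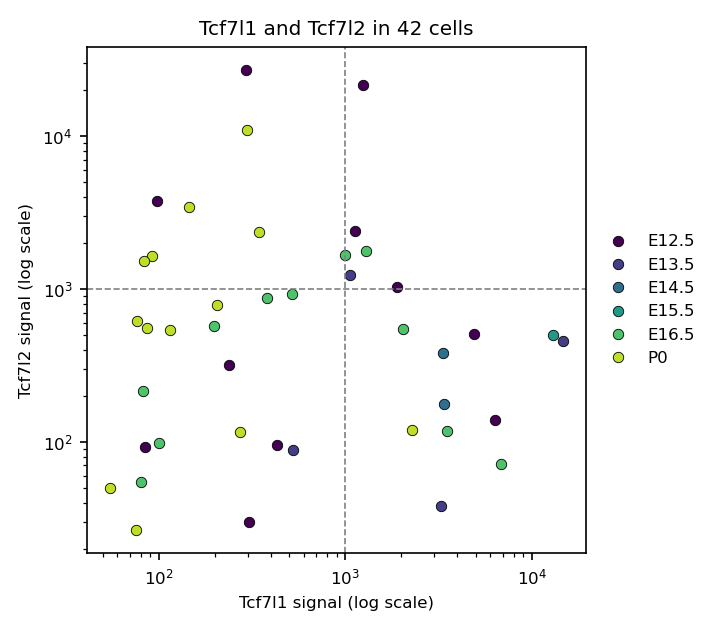
Signal of Tcf7l2 against Tcf7l1 in each of the 42 cells on log axes, coloured by stage, with dashed lines at 1000. The upper right field holds 5 cells and no P0 cell, with only 1 P0 cell to the right of the vertical line. The cells with the highest Tcf7l1 signals lie below the horizontal line.

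The gene whose presence was most like that of a member was sought among 7471 genes present in 5 to 37 cells, by the phi coefficient of presence over the 42 cells. For Csnk1a1 this was Fam120a, present in 33 of its 34 cells (phi = 0.76), and for Axin1 it was Prkd1, a protein kinase D present in 6 cells that all had Axin1 (0.69). For Gsk3b it was Adcy3, an adenylate cyclase present in 5 cells that all had Gsk3b (0.66). For Apc it was Idi1, an enzyme of isoprenoid synthesis found in 14 cells, 12 of them with Apc (0.58), before Faf1 (0.57) and Rlbp1 (0.55). For Tcf7l1 it was Tbc1d9b (0.55) and for Tcf7l2 B4galnt4 (0.53). These are the best of many genes over cells that differ in depth, so they are given as a description only, and no member stood among the 3 genes most like another member.

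The E protein genes Tcf3, Tcf4 and Tcf12 have names like those of the members but encode basic helix-loop-helix factors that do not bind beta-catenin. They were present in 26, 28 and 29 cells, so values for Tcf3 and Tcf4 under these symbols do not describe Tcf7l1 and Tcf7l2, for which the same names have also been used.

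Upstream of the members, ligands were rare. Of 882 combinations of 21 genes for Wnt ligands and their export, 20 were present, or 2.27%, below the 3.77% of the muscle and keratin genes. E13.5 A5, the cell with the highest Tcf7l1 and Lef1 signals, had Wnt7b at 14664 and was the only cell with Wls. It also had the highest signals of Mitf (5104) and Pmel (24440), genes of the pigment epithelium and ciliary margin list. Tyr, Tyrp1, Dct, Rpe65 and Msx1 of that list were below the level in this cell. The genes of that list were named here after their values were seen, and the origin of this cell was not tested. Of the receptors, Fzd3 was present in 30 cells, Fzd2 in 11 and the co-receptor Lrp6 in 10, and Fzd2 was in 1 of 13 P0 cells, against 6 of 11 E12.5 cells (-46.9 points, -71.8 to -9.97). Dvl2, which relays the signal from Frizzled to Axin, was in 8 of 13 P0 cells, against 2 of 11 E12.5 cells (43.4 points, 4.01 to 67.9). It was the only 1 of 8 genes in its list past the limit, against 8.58% of all genes higher and 2.76% lower. Fzd2 and Dvl2 had the largest differences of their lists, and their intervals do not allow for that choice.

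Of 840 combinations of 20 other genes of the complex and of beta-catenin turnover, 45% were present, against 35.7% for its 5 core genes. Ppp2r1a and Ppp2ca, a scaffold and the catalytic subunit of protein phosphatase 2A, were present in 40 and 36 cells, and Fbxw11, which recognises phosphorylated beta-catenin for ubiquitination, in 29. Against 8.58% of all genes higher and 2.76% lower, of the 20 genes 2 were higher at P0 by the limit, Ppp2r5e (51.0 points, 11.1 to 73.4) and Csnk1g2, which was named after its values were seen, and 1 was lower, Csnk1d (-34.3 points, -61.4 to 4.91). Of 16 nuclear corepressors and inhibitors, 3 were higher and 1 lower. Among them were Cby1 and Ctnnbip1, which encode small proteins that bind beta-catenin and keep it from Tcf factors. They were named for the largest differences in this list, and their intervals do not allow for that choice. Other levels and single probe sets were not examined for them. Cby1 was in 8 of 13 P0 cells, against 1 of 11 E12.5 cells (52.4 points, 13.8 to 74.5), and Ctnnbip1 in 9 of 13, against 3 of 11 (42.0 points, 2.21 to 67.1). The others, Hdac1 (higher) and Tle4 (lower), were named after their values were seen. Of 13 coactivators, Tbl1xr1 alone was past the limit, in 8 of 13 P0 cells, against 2 of 11 E12.5 cells, while Smarca4 was in 37 cells. At the junctions, the cadherin Cdh2 was present in 36 cells and the alpha-catenin Ctnna1 in 32, while Ctnnd2 was higher at P0 by 37.8 points and Cdh4 lower by the limit, at -40.6 points.

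Of 18 target genes of the pathway measured, 11 reached the level of 1000 in some cell, and none passed the limit between P0 and E12.5 in either direction, a count too small to set against the 8.58% and 2.76% of all genes. Ccnd1 was present in 41 cells and Mycn in 27, both of which proliferating RPCs use under other signals too, whereas Nkd1, an inhibitor that the pathway induces, was present in 11 cells and Znrf3 in 6. Sp5, Rnf43 and Lgr5, which were named after their values were seen, were present in none. With Axin2 and Lef1 included, 103 of 756 combinations of these genes were present, or 13.6%, against 17.0% over all genes. Genes of the pigment epithelium and ciliary margin were present in 3.06% of 294 combinations.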

How the data were processed

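Single cells from dissociated CD1 mouse retina were lysed and their RNA was reverse transcribed from an oligo dT primer, amplified by PCR for 35 cycles. One array of the type mouse 430 2.0 (Affymetrix) was used per cell. The deposited intensity values are linear MAS 5.0 signals, which the authors had brought to a target intensity of 500 by global scaling of every array. Because amplification starts at the poly(A) end, probe sets far from it can miss a transcript, and presence in a single cell also depends on capture.

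Of 45101 probe sets, 34958 had 1 gene symbol in the platform annotation, 932 had several and 9211 were not listed. A gene took the highest signal of its probe sets with 1 symbol and was called present at 1000 or more, which was also the level of the authors' filter. Shares of cells were given with exact Clopper-Pearson 95% intervals and their differences with intervals by Newcombe's method at the same 95% level. Both kinds of interval reflect the counting of cells and nothing else. Differences were computed for all genes present in at least 1 cell of the stages compared, and a difference of 30 points or more was counted as past the limit. Expected joint counts multiply the shares within each stage. The named genes were all members, for each member in 5 to 37 cells the genes with the most similar presence, and in each pathway list the 3 genes in the most cells and the 2 with the largest difference. Intervals of genes named for a large difference do not allow for that choice. The members and the gene lists were chosen with earlier results of these data known. Alternatives were levels of 500, 2000 and 5000, other values per gene, quantile normalization, scaling to the hybridization controls, and leaving out cells. The steps were tested on simulated data. Python 3.11.15 with numpy 2.4.6, pandas 2.3.3, scipy 1.17.1 and matplotlib 3.10.9 was used. Tcf7 is not reported here.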

Additional observations from a re-analysis of the deposited data

How the results depend on the processing

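The difference of Apc between P0 and E12.5 cells was 31.5 points at a level of 500, 34.3 points after quantile normalization, 38.6 points without the transitional cells and 36.9 to 47.0 points when each cell was left out in turn. It was under 30 points at 2000 (26.6 points), with the probe set of highest mean signal (21.7 points) and with the mean of the probe sets (11.2 points), and reversed at 5000 (-4.20 points). The cause was not tested. The difference of Tcf7l1 stayed negative in all settings run, from -46.9 points after quantile normalization to -9.09 points at 5000, but was under 30 points in size at 2000 (-10.5 points), at 5000, with the mean of the probe sets and with the probe set of highest mean signal (-19.6 points each) and after scaling to the controls (-28.7 points). It lay between -45.5 and -32.3 points with each cell left out. The smaller differences of Tcf7l2, Gsk3b and Axin1 changed sign in 1 or more settings, to 14.7 points (level 500), 6.29 points (level 2000) and -9.09 points (level 5000). The number of cells with both Tcf7l1 and Tcf7l2, 5 in the report, was 9 at a level of 500, 0 at 2000 and at 5000, 0 with the mean of the probe sets and 2 with the probe set of highest mean signal. The median number of members per cell was 3 at 2000 and with the probe set of highest mean signal, and 4 without the 5 E16.5 arrays with deviating controls. Of the alternatives for single genes, those of the Apc and Tcf7l1 differences between P0 and E12.5 apart, 122 gave a value inside the counting interval of the reported one and 23 a value outside it. The scaling to the hybridization controls and the runs of E16.5 comparisons and of members per cell without the 5 arrays were chosen after seeing the data. No paired analysis was possible because the labels name no animal or litter and no result comes from a test. The 11 to 13 cells per main stage limit every difference, and E13.5, E14.5 and E15.5 hold too few cells for one.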
